A study of Mus musculus with 2 samples.

Results

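The 31 hypoxia and glycolysis genes form a fixed list of symbols and were read by name from the 32285 features counted in each library. They comprise a glucose importer and a lactate exporter (Slc2a1 and Slc16a3), 13 enzymes of glycolysis from hexokinase to lactate dehydrogenase (Hk1, Hk2, Gpi1, Pfkl, Pfkp, Aldoa, Tpi1, Gapdh, Pgk1, Pgam1, Eno1, Pkm and Ldha), the flux regulators Pfkfb3 and Pdk1, the oxygen sensing genes Hif1a, Egln1 and Egln3, the known hypoxia responders Vegfa, Adm, Bnip3, Bnip3l, Hilpda, Ndrg1, Ddit4, Ero1l, P4ha1 and Ankrd37, and the cytokine gene Mif. All 31 had at least 1 UMI (unique molecular identifier, a count of a captured transcript molecule) in the kept cells of both libraries. CD45+ leukocytes came from C57BL/6 mice that bore MC38 colon cancer tumors under the skin of each flank. Microwave ablation (MWA) destroyed the right tumor when it had reached about 300 mm3, and the cells were isolated on day 8 from the left tumor, which had not been ablated. The MWA group is 1 library and the MWA plus TIGIT group is 1 library. In the latter, a blocking antibody against the inhibitory receptor TIGIT was also injected, beginning on day 1 and repeated at intervals of 3 days, and the labels and the methods differ in how many injections were given. The methods describe male mice that were several weeks old when bought, and an isotype control antibody for the MWA group, whereas neither source gives the number of mice behind a library. Libraries of mice without MWA were not analysed here. Because each group is 1 library, the groups could not be tested against each other, and every difference below compares these libraries and not the treatments, and is reported as a size with an interval that covers counting error only.

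Glycolysis splits glucose into pyruvate, and lactate dehydrogenase with the exporter Slc16a3 disposes of the product when the mitochondria do not burn it. Hif1a encodes the oxygen-regulated subunit of the transcription factor HIF. The prolyl hydroxylases Egln1 and Egln3 mark that subunit for destruction when oxygen is present, and when oxygen is short HIF accumulates and switches on genes for glucose uptake, glycolysis, blood vessel growth and removal of mitochondria. Macrophages and neutrophils in poorly perfused tumor areas are known to express these genes, activated T cells also raise glycolysis in ample oxygen, and no oxygen level was measured in these samples.

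HIF binds DNA at short sites with the cores ACGTG or GCGTG, and promoters of some members are shown before the values. The members include known hypoxia responders, so the share of matches describes the list and not these samples. RefSeq entries on GRCm38.p6 were found for 29 of the 31 genes and held 40 promoters, and Bnip3l and Ndrg1 had no entry. Within the 250 bases before the start site, at least 1 match of either core on either strand was present in 31 of the 40 promoters (77.5%), against 38.6% of all 32851 promoters in the table and 57% of the 7936 promoters whose share of C and G lay between the quartiles of the members (56.5% to 67.8%). At least 2 matches were present in 55% of member promoters and in 16.7% of all promoters. The palindrome CACGTG counts as a match on each strand. Counted by gene, 26 of 29 members (89.7%) had a match in any of their promoters, compared with 41.5% of 27025 genes, and Gpi1, Tpi1 and Mif had none. Capitals mark the cores, read on the strand of the gene or as their reverse complements. Bases that an annotated gene body covers were left out. Read 5′ to 3′, the first 3 sequences belong to genes with large differences among the macrophage clusters, P4ha1 to a gene with a smaller one, the next 2 to glycolytic enzymes, and Mif is a member without a match.
Bnip3, chr7:138909520-138909756, minus strand, 5 matches: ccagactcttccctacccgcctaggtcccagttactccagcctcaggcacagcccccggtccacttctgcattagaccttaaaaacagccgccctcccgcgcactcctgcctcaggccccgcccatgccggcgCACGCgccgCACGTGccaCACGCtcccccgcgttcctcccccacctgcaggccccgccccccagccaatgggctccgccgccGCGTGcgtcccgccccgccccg
Slc2a1, chr4:119108495-119108710, plus strand, 1 match in the printed bases: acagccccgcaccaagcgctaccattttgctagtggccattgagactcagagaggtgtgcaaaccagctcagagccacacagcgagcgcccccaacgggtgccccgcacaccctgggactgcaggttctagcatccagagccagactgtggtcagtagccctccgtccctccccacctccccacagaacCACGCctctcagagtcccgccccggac
Egln3, chr12:54203875-54204124, minus strand, 1 match: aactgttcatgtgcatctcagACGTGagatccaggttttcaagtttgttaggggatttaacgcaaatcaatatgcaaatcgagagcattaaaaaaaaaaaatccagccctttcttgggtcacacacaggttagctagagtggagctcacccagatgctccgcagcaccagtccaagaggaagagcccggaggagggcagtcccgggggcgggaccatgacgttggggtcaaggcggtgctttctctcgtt
P4ha1, chr10:59323046-59323295, plus strand, 3 matches: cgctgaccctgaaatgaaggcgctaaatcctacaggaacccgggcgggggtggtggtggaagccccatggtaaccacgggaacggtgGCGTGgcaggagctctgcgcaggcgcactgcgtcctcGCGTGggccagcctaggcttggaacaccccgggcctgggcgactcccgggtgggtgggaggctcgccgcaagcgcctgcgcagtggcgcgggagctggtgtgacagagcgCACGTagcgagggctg
Pgk1, chrX:106186850-106187099, plus strand, 2 matches: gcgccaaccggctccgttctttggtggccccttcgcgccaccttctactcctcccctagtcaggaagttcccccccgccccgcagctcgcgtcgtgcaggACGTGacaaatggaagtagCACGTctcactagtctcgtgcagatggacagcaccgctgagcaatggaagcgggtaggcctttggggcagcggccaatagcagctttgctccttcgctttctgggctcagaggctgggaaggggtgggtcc
Hk2, chr6:82774455-82774704, minus strand, 2 matches: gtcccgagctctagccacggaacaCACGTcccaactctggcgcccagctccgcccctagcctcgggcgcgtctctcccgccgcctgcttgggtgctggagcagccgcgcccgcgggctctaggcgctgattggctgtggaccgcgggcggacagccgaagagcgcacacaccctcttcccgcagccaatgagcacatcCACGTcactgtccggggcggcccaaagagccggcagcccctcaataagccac
Mif, chr10:75860278-75860527, minus strand, no match: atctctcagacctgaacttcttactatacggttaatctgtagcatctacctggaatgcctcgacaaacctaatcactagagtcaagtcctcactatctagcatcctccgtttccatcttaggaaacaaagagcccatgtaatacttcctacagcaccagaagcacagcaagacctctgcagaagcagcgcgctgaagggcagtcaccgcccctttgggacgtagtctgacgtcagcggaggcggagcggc
The printed match nearest to the start site lay 35 bases before it in Bnip3, 61 bases in Slc2a1, 16 bases in P4ha1, 131 bases in Pgk1, 52 bases in Hk2 and 229 bases in Egln3. These are matches of letters and not measured binding, and their part in the levels below was not tested.

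After filtering, 9202 cells of the MWA group and 9082 cells of the MWA plus TIGIT group remained, with medians of 5326.5 and 6271 UMIs. Of the cell barcodes, 27 were kept in both libraries. The cells were grouped into classes by their clusters and marker genes, with the 31 genes and 70 other genes of the pathway left out of the clustering. Names ending in -like rest on markers. Tumor-associated macrophage (TAM)-like cells numbered 3673 and 3727, CD8 T cells 1961 and 2076, CD4 T-like cells 909 and 783, regulatory T-like cells 712 and 594, monocyte-like cells 718 and 810 and neutrophil-like cells 95 and 87. Levels are given in CPM, the UMIs of a gene per 1000000 UMIs of the class, and pairs of values are in the order MWA group, MWA plus TIGIT group. The 3′ counts allow a gene to be compared between classes, not different genes with each other. Gapdh, Pgam1 and Eno1 have near-identical copies in the mouse genome, so that their levels are uncertain. Clusters were made from the cells that are compared, so class differences are descriptions.

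Of the broad classes, neutrophil-like cells gave the largest share of their UMIs to the 31 genes together, at 1.95% and 1.68%. TAM-like cells followed at 1.08% and 1.20% and monocyte-like cells at 1.05% and 1.08%. Within the TAM-like cells, the cluster led by Hspb1 and Mmp12, described below, had 1.94% and 2.22%. In CD8 T cells the share was 0.663% and 0.664%, and in B-like cells 0.252% and 0.291%. Among the 10 broad classes, neutrophil-like cells held the highest CPM of 23 genes in the MWA group and of 16 genes in the MWA plus TIGIT group, and 20 genes had the same top class in both libraries. Slc2a1, a glucose importer, reached 412 and 449 CPM in neutrophil-like cells and 111 and 98.8 CPM in monocyte-like cells. It had 89 and 94.6 CPM in TAM-like cells and 46.3 and 42 CPM in regulatory T-like cells. In both libraries its level in neutrophil-like cells lay above all other broad classes beyond the counting intervals. Clusters within the TAM-like cells were not part of this order. The intervals of monocyte-like and TAM-like cells overlapped in the MWA plus TIGIT group only. Gapdh, an enzyme of lower glycolysis, was highest in TAM-like cells, at 3010 and 3283 CPM, and lowest in B-like cells, at 623 and 628 CPM.

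Hif1a followed another order of the broad classes. Its transcript was highest in regulatory T-like cells, at 555 and 550 CPM, with CD4 T-like cells at 339 and 294 CPM and neutrophil-like cells at 330 and 458 CPM, the latter from 52 UMIs and with an interval overlapping that of regulatory T-like cells. TAM-like cells had 95.3 and 101 CPM, within the counting intervals of DC-like cells at 103 and 106 CPM, and CD8 T cells had 111 and 116 CPM. The order of a known target was different. Vegfa, the endothelial growth factor, was highest in neutrophil-like cells, at 597 and 343 CPM from 58 and 39 UMIs. It stood at 164 and 132 CPM in monocyte-like cells, 95.3 and 89.3 CPM in TAM-like cells and 14.5 and 5.53 CPM in regulatory T-like cells. Ddit4, an inhibitor of mTOR signalling, was lowest in TAM-like cells at 8.10 and 7.56 CPM, with the intervals of DC-like and gamma-delta T-like cells overlapping in both libraries and that of B-like cells in the MWA group, and reached 101 and 134 CPM in regulatory T-like cells. Hilpda, an inhibitor of lipid droplet breakdown, was highest in neutrophil-like cells at 2441 and 1691 CPM. Its next level among the broad classes was 298 CPM in regulatory T-like cells of the MWA group. In the MWA plus TIGIT group it was 347 CPM, in gamma-delta T-like cells. The intervals of regulatory and gamma-delta T-like cells overlapped in both libraries. Vegfa was also detected in NK-like cells, at 126 and 147 CPM, and Egln3 had no UMI in NK-like cells of either library, which allows up to 4.36 and 5.95 CPM by the exact interval.

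**Figure D1:**
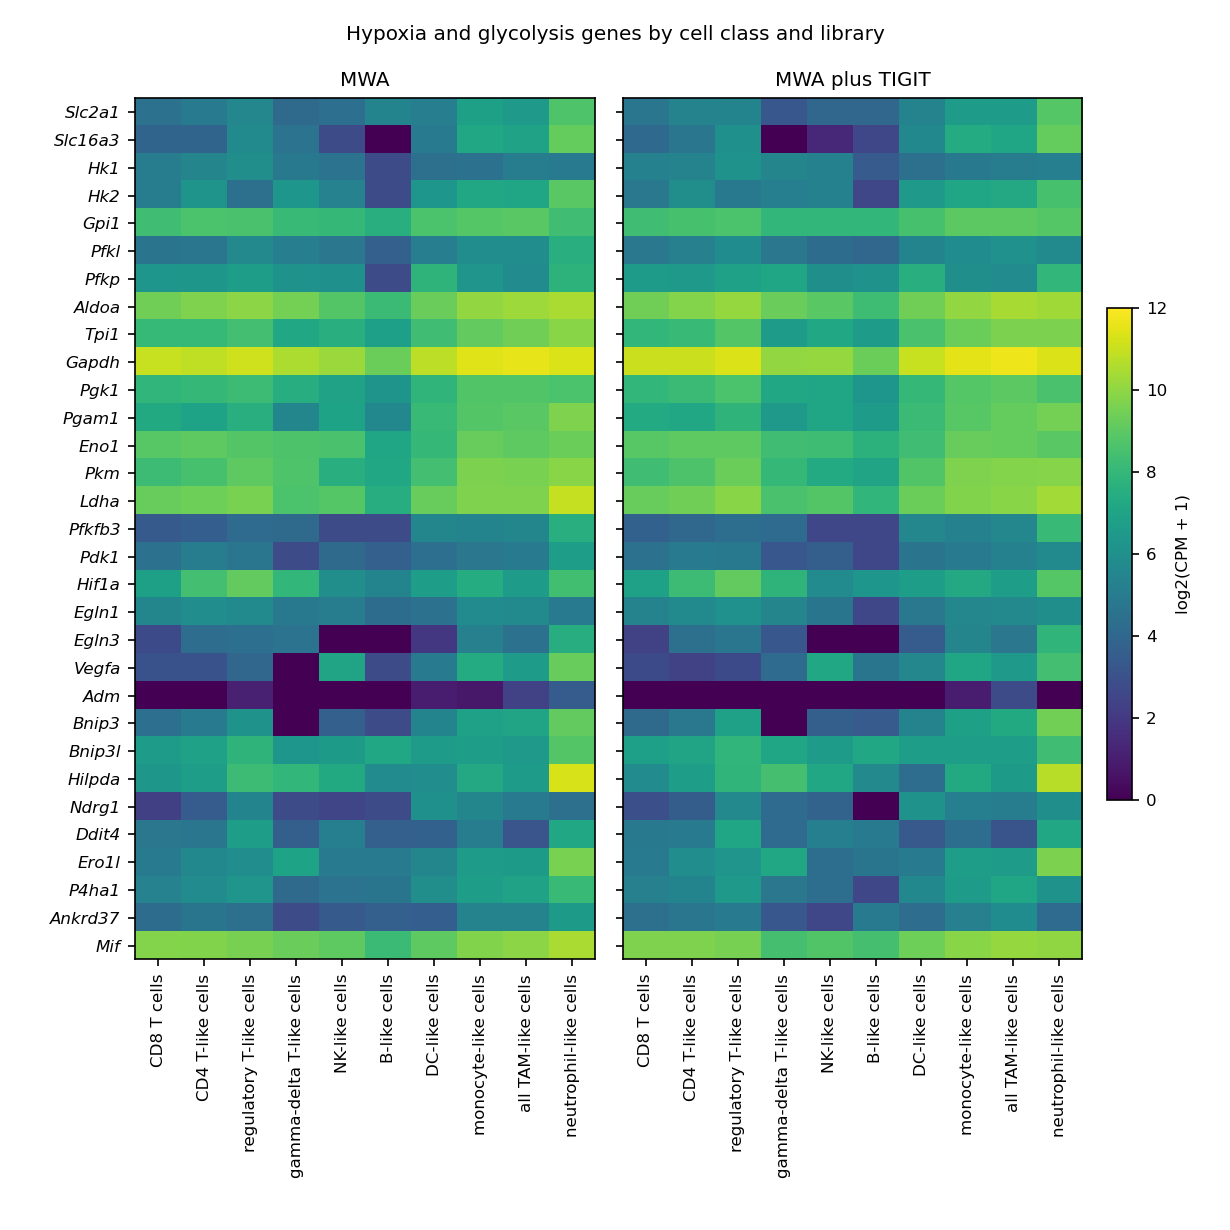
Level of each of the 31 genes (rows) in 10 broad cell classes (columns) as log2(CPM + 1), with 1 panel per library. The column of neutrophil-like cells is brightest for Slc2a1, Slc16a3, Hilpda, Ero1l and Bnip3 in both panels, whereas Hif1a is brightest in regulatory T-like cells, at 555 and 550 CPM.

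TAM-like cells and CD8 T cells, the largest classes of the myeloid and lymphoid cells, differed most, among genes with UMIs in both, in Vegfa, Slc16a3, Ndrg1 and Bnip3 and little in Hk1, Eno1, Hif1a and Bnip3l. A size of 2-fold in both libraries was used, among genes with at least 100 UMIs in the cells compared. By it, 16 of 31 genes were higher in TAM-like cells and 1 was lower, while of all 11342 genes 21% were higher and 12.9% lower. The median log2 ratio of the members was 1.17 and 1.32, and that of all genes 0.09 and −0.01. Slc16a3, which exports lactate, had 118 CPM in TAM-like cells and 13.8 CPM in CD8 T cells of the MWA group, an 8.54-fold difference, and 135 and 16 CPM in the MWA plus TIGIT group, an 8.41-fold difference. The glucose importer Slc2a1 was 4.05-fold and 3.74-fold higher, and Hk2, the inducible hexokinase, 4.18-fold and 5.52-fold higher. Hk1, the constitutive hexokinase, showed 32.0 against 33.5 CPM and 32.5 against 38.0 CPM and so did not differ by the size used.

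Among enzymes after hexokinase, Pgam1 was 3.18-fold and 3.62-fold higher in TAM-like cells, Tpi1 2.58-fold and 3.29-fold, Pkm 2.54-fold and 2.70-fold and Pfkl 2.47-fold and 2.50-fold. Eno1 (1.11-fold and 1.21-fold), Ldha (1.38-fold and 1.57-fold) and Gapdh (1.48-fold and 1.58-fold) stayed under 2-fold, and Pfkp, the platelet-type phosphofructokinase, was lower in TAM-like cells at 0.696-fold and 0.573-fold. Of the hypoxia responders with UMIs in both classes, Vegfa had the largest ratio, 95.3 against 7.12 CPM (13.4-fold) and 89.3 against 5.51 CPM (16.2-fold). Bnip3, a receptor for the removal of mitochondria, was 6.49-fold and 9.22-fold higher, whereas its relative Bnip3l was 0.902-fold and 0.989-fold. Adm, the vasodilator adrenomedullin, had no UMI in CD8 T cells, which allows up to 0.38 and 0.363 CPM, and 139 and 244 UMIs in TAM-like cells. Ddit4 was the gene lower by the size used, with 8.10 against 26.0 CPM and 7.56 against 28.0 CPM. The macrophage transcripts C1qa, C1qb and C1qc were found in CD8 T cells at 284 and 291 CPM, against 14494 and 15830 CPM in TAM-like cells. Scaled by that ratio, the Vegfa level of TAM-like cells comes to 1.87 and 1.64 CPM, beside 7.12 and 5.51 CPM measured in CD8 T cells. The scaling is rough, since C1q itself differed among TAM-like clusters. It was 7877 and 9399 CPM in the cluster led by Hspb1 and Mmp12, and 16695 and 17969 CPM in that led by Ccl8 and Selenop. The part of free RNA in the CD8 T cell levels was not tested. Of the 70 other genes of the pathway, 55 were counted, of which 23 were higher and 4 lower. They included another glucose importer, Slc2a3, at 2.28 against 26.3 CPM and 2.24 against 31.1 CPM, in the opposite direction to Slc2a1.

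Within the TAM-like cells, the genes separated the clusters widely. The cluster led by Hspb1 and Mmp12 held 678 and 707 cells, and the 31 genes took 1.94% and 2.22% of its UMIs. The same share was 0.747% and 0.82% in the cluster led by Ccl8 and Selenop (1189 and 1097 cells) and 1.32% and 1.46% in the cluster led by Slc7a2 and Arg1 (867 and 956 cells). Between the clusters led by Hspb1 and Mmp12 and by Ccl8 and Selenop, 22 of 31 genes were at least 2-fold higher in the former in both libraries and none was lower, compared with 3.3% and 13.1% of 9384 genes. Medians of the log2 ratio were 1.36 and 1.51 for the members and −0.43 and −0.43 for all genes. The 9 genes not past the size were Slc16a3, Hk1, Pfkl, Pgam1, Eno1, Pkm, Pdk1, Hif1a and P4ha1.

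Ndrg1, a stress-responsive gene, had 148 CPM in the cluster led by Hspb1 and Mmp12 and 8.30 CPM in that led by Ccl8 and Selenop in the MWA group (17.8-fold), and 162 and 6.55 CPM in the MWA plus TIGIT group (24.8-fold). For Egln3, the hydroxylase that is itself a HIF target, the levels were 73.2 and 4.20 CPM (17.4-fold) and 83.9 and 8.96 CPM (9.37-fold). Hilpda reached 390 against 36.6 CPM (10.6-fold) and 417 against 23.6 CPM (17.6-fold). The printed promoters of Slc2a1 and Bnip3 belong to genes of the same kind. Slc2a1 stood at 300.0 against 37.4 CPM and 321 against 40.6 CPM, and Bnip3 at 423 against 56.3 CPM and 484 against 74.4 CPM. Vegfa differed less, by 4.31-fold and 4.17-fold. Among the enzymes the differences were smaller but of the same direction, from 1.69-fold and 1.81-fold for Eno1 to 3.54-fold and 3.85-fold for Pfkp, apart from Hk1 at 1.28-fold and 1.56-fold. Mif, a cytokine made by most leukocytes, had 2026 against 612 CPM and 2225 against 690 CPM. The Hif1a transcript was nearly level, at 97.4 against 89.8 CPM and 107 against 92.7 CPM.

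Other measures that moved with this cluster were lower C1q transcripts, at 7877 and 9399 CPM against 16695 and 17969 CPM, and fewer UMIs per cell, with medians of 6556.5 and 8110 against 8642 and 10640. Dissociation stress genes summed to 5580 and 6027 CPM against 5690 and 5371 CPM, and 8 epithelial tumor cell markers to 1.53 and 2.09 CPM against 1.72 and 0.912 CPM, so the tumor markers were near 0 in both clusters. The part of C1q level or depth in the result was not tested. The cluster led by Slc7a2 and Arg1 lay between, with 10 of 30 genes at least 2-fold above the cluster led by Ccl8 and Selenop (1.17% of all genes), among them Egln3 (7.40-fold and 3.70-fold), Ankrd37 (4.19-fold and 4.18-fold), Slc16a3 (2.26-fold and 2.41-fold) and Pgk1 (2.10-fold and 2.14-fold). Cycling TAM-like cells had 0 of 30 genes at least 2-fold higher, where 5.53% of all genes were.

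**Figure D2:**
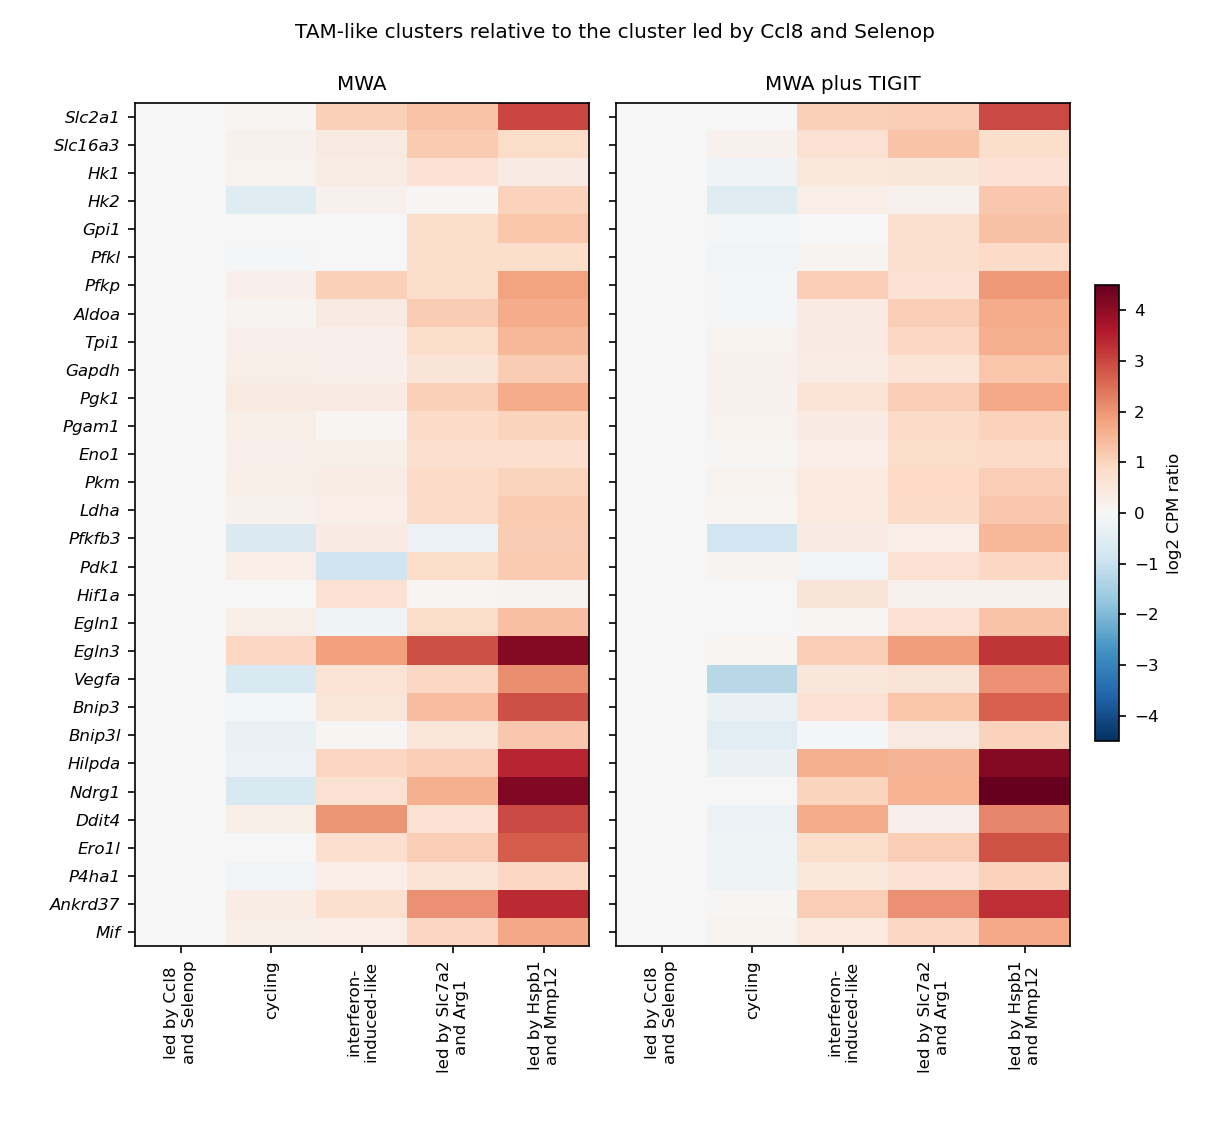
log2 CPM ratio of 30 genes in each TAM-like cluster over the cluster led by Ccl8 and Selenop, with 1 panel per library. Adm is left out because its level in the reference cluster was near 0. The column of the cluster led by Hspb1 and Mmp12 is dark red for Ndrg1 (17.8-fold and 24.8-fold) and Egln3 (17.4-fold and 9.37-fold) and pale for Hif1a (1.08-fold and 1.16-fold).

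To see whether the genes went together in the same cells, each TAM-like cell with at least 3000 UMIs was thinned to 3000 UMIs and given a HIF target score, the summed UMIs of Egln3, Vegfa, Adm, Bnip3, Hilpda, Ndrg1, Ero1l, P4ha1 and Ankrd37. In all, 3515 and 3641 cells were scored and 158 and 86 shallower cells were left out. A score of at least 3 was reached by 963 cells (27.4%, exact 95% interval 25.9% to 28.9%) and 1095 cells (30.1%, 28.6% to 31.6%). These intervals count the cells of a single library and do not measure the spread between mice. The shares of the libraries were not tested against each other. No UMI of these genes was found in 1182 and 1151 cells. The score is a range and not a cell type, and 288 and 306 cells lay exactly at 3 with 532 and 526 at 2. Of the cells with at least 3, 49.4% and 49.8% belonged to the cluster led by Hspb1 and Mmp12. Within that cluster 76.2% and 81% reached the score, in contrast to 10.2% and 11.3% of the cluster led by Ccl8 and Selenop and 7.94% and 8.37% of cycling TAM-like cells.

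Cells with a score of at least 3 were compared with cells at 0 for the 22 members outside the score. In both libraries 21 of them were at least 1.5-fold higher and none was lower, where 4.56% of 7723 genes were higher and 12.8% lower. Median log2 ratios were 1.19 and 1.28 for the members and −0.23 and −0.23 for all genes. Slc2a1 had 225 CPM in the cells with a score of at least 3 and 30.2 CPM in those at 0 (7.47-fold), and 237 and 38.2 CPM in the MWA plus TIGIT group (6.20-fold). Ddit4, although rare, had 21.5 against 2.82 CPM and 16.1 against 2.90 CPM. The enzyme Pgk1, whose printed promoter holds 2 matches, had 728 against 254 CPM (2.86-fold) and 859 against 293 CPM (2.93-fold). Tpi1 and Mif, whose promoters hold none, were 2.75-fold and 2.89-fold and 2.77-fold and 2.90-fold higher. Gapdh differed by 1.80-fold and 1.97-fold and Eno1 by 1.62-fold and 1.70-fold. Hif1a was the member not past the size, at 116 against 82.1 CPM (1.41-fold) and 107 against 90.9 CPM (1.18-fold). With the cluster led by Hspb1 and Mmp12 left out, 19 of 21 counted members were past the size, and within the cluster led by Ccl8 and Selenop alone 13 of 20. Both of these comparisons were chosen after the data had been seen. No share of all genes was counted for them, so neither count has a background.

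**Figure D3:**
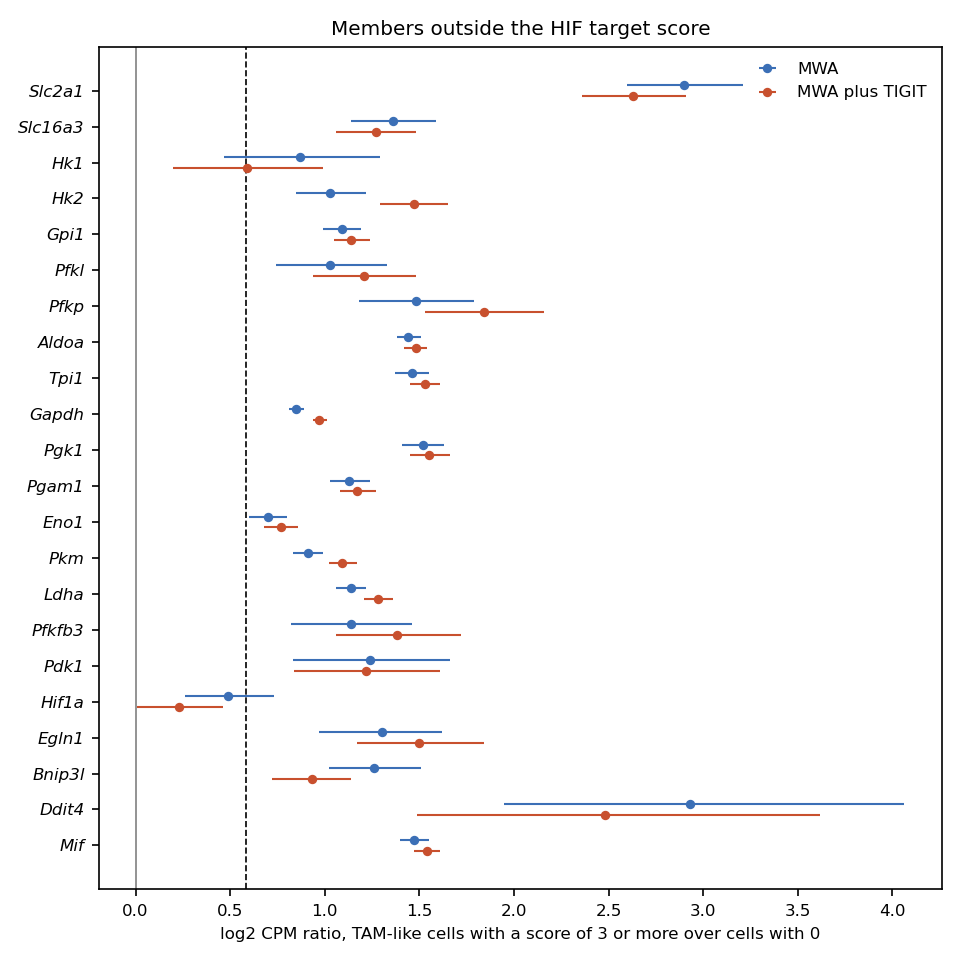
log2 CPM ratio of the 22 members outside the HIF target score between TAM-like cells with a score of at least 3 and cells at 0, with exact 95% counting intervals, for both libraries (colors). The dashed line is 1.5-fold. Slc2a1 and Ddit4 lie farthest to the right, at 7.47-fold and 7.61-fold in the MWA group, and Hif1a lies left of the line.

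The 13 glycolytic enzymes together increased with the score. Their median was 16 and 17 UMIs per 3000 in cells at 0, 27 and 29.5 at a score of 2, and 51 and 58 at a score of 10 or more. Interquartile ranges were 12 to 24 and 12 to 25 UMIs at 0, and 42 to 58 and 48 to 68.5 UMIs at 10 or more, so that these ends of the range did not overlap. Across cells, Spearman's rho of score and enzyme UMIs was 0.55 (3515 cells) and 0.61 (3641 cells). It is a description, since the cells share a library and a fixed number of UMIs. Each gene of the score was also compared between cells ranked by the remaining genes of the score. Ndrg1 was then 11.6-fold and 14.7-fold higher at a score of at least 3 than at 0, Hilpda 9.74-fold and 12.8-fold, Bnip3 5.95-fold and 7.68-fold and Vegfa 4.63-fold and 5.14-fold. P4ha1, a subunit of the collagen prolyl hydroxylase, was the least tied to the others, at 1.94-fold and 1.99-fold.

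**Figure D4:**
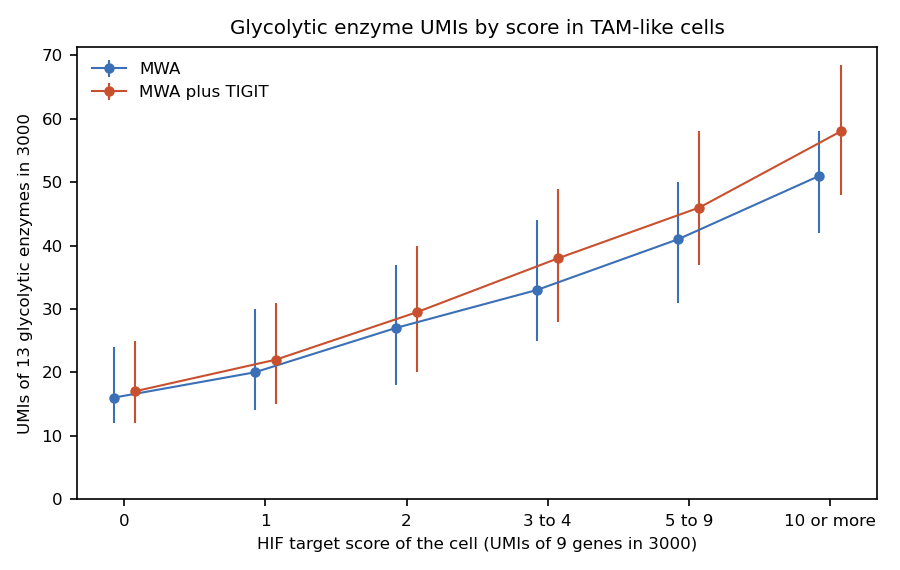
UMIs of 13 glycolytic enzymes per 3000 UMIs (vertical axis) in TAM-like cells grouped by their HIF target score (horizontal axis), for both libraries. Points are medians and bars span the quartiles. Medians climb from 16 and 17 UMIs at a score of 0 to 51 and 58 UMIs at 10 or more.

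Beyond the 31 genes, 42 of the 70 other pathway genes were counted in the same comparison, of which 21 were higher and 4 lower. P4ha2 (22.2 against 3.67 CPM and 29.8 against 2.61 CPM), the glycogen synthase Gys1 (3.96-fold and 4.70-fold), Hmox1 (heme oxygenase, 5-fold and 3.82-fold), Slc6a8 (4.09-fold and 3.77-fold) and Nos2, the inducible nitric oxide synthase (17.3 against 0.564 CPM and 30.7 against 0.869 CPM), had the largest ratios. Ldhb, the lactate dehydrogenase subunit that complements Ldha, was lower at 10.7 against 25.7 CPM and 14.3 against 26.6 CPM, and so were Slc2a6, Slc16a7 and Adpgk. Across all genes, those with the largest ratio, taking the less extreme library of each, were Nos2, Mmp12, Fabp4, Atp6v0d2, Tnfrsf9, Gpnmb, Mgarp, Slpi, Mt2 and Cd24a. Mmp12, macrophage elastase, had 236 against 9.87 CPM and 290 against 13.6 CPM, and Gpnmb 72.7 against 4.51 CPM and 77.3 against 6.95 CPM. The lowest were Ighm and the cell cycle genes Hist1h3c, Cenpm, Birc5 and Pclaf. All 9 cycling markers were lower, with sums of 181 against 655 CPM and 158 against 786 CPM. Of the 11 TAM markers, Mrc1 and Csf1r were lower and none was higher, and 4 of the 5 counted Arg1 TAM markers were higher. Of the 9 dissociation stress genes, Hspa1a, Hspa1b and Hsp90aa1 were higher and Egr1 lower, with sums of 5363 against 5543 CPM and 5286 against 4736 CPM. Of the 8 interferon-induced genes, Ifit1, Rsad2 and Ifit2 were higher, with sums of 438 against 294 CPM and 689 against 259 CPM. Of the 5 monocyte markers counted, F13a1 was higher and Ccr2 lower, and no T cell, tumor cell, fibroblast or erythroid marker had enough UMIs to be counted. The part of these lists in the result was not tested.

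Among the broad classes, neutrophil-like cells had the highest levels of the transporters and several HIF targets, and the fewest UMIs to measure them. Their median was 918 and 1142 UMIs per cell, and 55 and 38 of them had under 1000. Compared with TAM-like cells, 13 of 31 genes were at least 2-fold higher in both libraries and 0 lower, against 9.6% higher and 46.5% lower among 10740 genes. The minimum of UMIs was summed over both classes, so TAM-like cells alone could meet it. A gene without a UMI in neutrophil-like cells then counted as lower. Only 303 genes had at least 100 UMIs in neutrophil-like cells, so these shares are no matched background for the members. Hilpda was 25.5-fold and 18.5-fold higher. Ddit4 had 144 and 141 CPM against 8.10 and 7.56 CPM, from 14 and 16 UMIs. Ero1l, which drives disulfide formation in the endoplasmic reticulum, had 762 and 784 CPM against 90.6 and 98.8 CPM. Egln3 was 8.10-fold and 8.68-fold higher, Slc16a3 4.89-fold and 4.24-fold, and Hif1a 3.46-fold and 4.55-fold. Enzymes of lower glycolysis did not move one way, with Gapdh at 0.838-fold and 0.810-fold and Pgk1 at 0.925-fold and 0.743-fold, but Pgam1 at 1.66-fold and 1.25-fold and Ldha at 2.41-fold and 1.38-fold. The dissociation stress genes summed to 11092 and 12223 CPM in neutrophil-like cells, against 5271 and 4826 CPM in TAM-like cells, and 8 tumor cell markers, 7 of them at 0, to 72.1 and 26.4 CPM from 7 and 3 UMIs, against 1.40 and 0.948 CPM. The part of these genes in the result was not tested. The monocyte-like cluster led by Hp and Ace (117 and 107 cells) showed the opposite pattern, with 13 of 31 genes at least 2-fold below TAM-like cells, where 15.4% of all genes were. Mif had 179 and 201 CPM there, Tpi1 213 and 183 CPM and Bnip3 34.9 and 20.3 CPM, whereas Hif1a stood higher than in TAM-like cells, at 239 and 159 CPM.

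Among CD8 T cells the genes were lowest in stem-like cells and highest in exhausted-like cells. The 31 genes took 0.239% and 0.258% of UMIs in stem-like cells (135 and 131 cells), 0.46% and 0.547% in effector-like cells (553 and 849 cells), 0.77% and 0.763% in cycling-like cells (520 and 485 cells) and 0.832% and 0.876% in exhausted-like cells (309 and 206 cells). Between exhausted-like and stem-like cells, 16 of 23 counted genes were at least 2-fold higher and Pdk1 was lower, compared with 17.7% and 2.22% of 4048 genes. Medians were 1.65 and 1.83 for the members and 0.49 and 0.52 for all genes. Hilpda had 206 against 17.1 CPM and 162 against 11.9 CPM, Tpi1 346 against 57.6 CPM and 367 against 65.6 CPM, and Gapdh 2589 against 599 CPM and 2704 against 621 CPM. Pdk1, which restrains entry of pyruvate into the mitochondria, ran the other way, at 18.3 against 42.6 CPM and 18.9 against 51.7 CPM.

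Over effector-like cells, exhausted-like cells had 5 of 26 genes at least 2-fold higher, against 2.8% of 5925 genes. These were Hilpda (206 against 43.2 CPM and 162 against 32.4 CPM), Bnip3 (39.4 against 7.86 CPM and 37.2 against 9.81 CPM), Pgk1 (339 against 105 CPM and 380 against 162 CPM), Tpi1 (2.64-fold and 2.48-fold) and Ero1l (2.34-fold and 2.85-fold). Cycling-like cells exceeded effector-like cells by 2-fold for Tpi1 alone (1 of 27 genes, with 7.13% of all genes higher). In the CD4 lineage, regulatory T-like cells had 5 of 28 genes at least 2-fold above the CD4 T-like cluster led by Cd40lg and Ramp3 (7.12% of all genes). Hilpda stood at 298 against 69.7 CPM and 227 against 73.9 CPM, Ddit4 at 101 against 29.6 CPM and 134 against 31.4 CPM, and Bnip3 at 70.0 against 19.7 CPM and 114 against 28.8 CPM, with Slc16a3 and Ndrg1 the others. Hk2 stood at 20.8 against 44.7 CPM and 28.2 against 34.0 CPM in that comparison. It was the 1 gene of 27 to pass 2-fold between the CD4 T-like clusters, at 93.2 against 44.7 CPM and 87.9 against 34.0 CPM in the cluster led by Ifitm3 and Ifitm2 (0.434% of all genes).

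Between the libraries, the genes in TAM-like cells were mostly slightly higher in the MWA plus TIGIT group. None of 31 genes reached 1.5-fold, as 1.71% of 10713 genes did. Of the 31, 27 were higher and 4 lower, and the counting interval lay above 0 for 23 and below 0 for 1, against 21.5% above 0 and 9.47% below 0 among 10713 genes. Among all genes 61.5% were higher, and the median log2 ratio, positive where the MWA plus TIGIT group was higher, was 0.16 for the members and 0.04 for all genes. Ankrd37, an ankyrin repeat gene, had 40.3 and 56.4 CPM, with a log2 ratio of 0.48 (95% interval 0.39 to 0.58). Adm had 4.23 and 5.93 CPM (0.49, 0.18 to 0.80), and Bnip3l 85.5 and 106 CPM (0.31, 0.25 to 0.38). The lowest were Ddit4 at 8.10 and 7.56 CPM (−0.10, −0.34 to 0.14), Vegfa at 95.3 and 89.3 CPM (−0.09, −0.16 to −0.03) and Hilpda at 95.6 and 91.5 CPM (−0.06, −0.13 to 0.00). All 13 enzymes were higher, from 0.01 for Pfkp and 0.02 for Hk1, whose intervals held 0, to 0.27 for Tpi1, which had 666 and 803 CPM. Pgk1 had 423 and 498 CPM (0.23), Ldha 823 and 925 CPM (0.17), Slc16a3 118 and 135 CPM (0.19) and Slc2a1 89 and 94.6 CPM (0.09). Cycling TAM-like cells did not share the difference, with a median of 0.05 for members and for all genes. Their intervals lay above 0 for 6 and below 0 for 7 of 29 members. In the other TAM-like clusters the members' median was 0.12 to 0.22. Depth moved in the same direction, with medians of 8611 and 10587 UMIs per TAM-like cell. Cluster sizes also changed, with 1189 and 1097 cells led by Ccl8 and Selenop and 867 and 956 led by Slc7a2 and Arg1. The part of depth or cluster sizes in these ratios was not tested. Of the other pathway genes, 53 were counted with a median of 0.08, and Nos2 (4.35 and 7.80 CPM) and Arg1 (1232 and 1935 CPM) were past 1.5-fold.

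In CD8 T cells the members were near level as a group, with a median log2 ratio of 0.04 over 29 counted genes against 0.15 for all genes, of which 76.1% were higher. Ndrg1 was the gene past 1.5-fold, at 3.82 and 6.50 CPM from 37 and 66 UMIs (0.77, 0.17 to 1.39), where 2.58% of 8513 genes were higher by that size. It was past the size in 10 of 12 alternative settings, and not when cells over 5000 UMIs were left out or cells were picked by marker UMIs. Hilpda lay just under the size in the other direction, at 81.6 and 54.4 CPM from 791 and 553 UMIs (−0.58, −0.74 to −0.42), and passed it in 7 of 12 alternative settings. Pfkp had 78.7 and 96.4 CPM (0.29, 0.15 to 0.43), and Mif 882 and 819 CPM (−0.11, −0.15 to −0.06). The enzymes Aldoa, at 666 and 668 CPM, and Gpi1, at 321 and 321 CPM, differed by less than counting error. Of 35 other pathway genes counted, Tigar, Vhl and Gbe1 were past 1.5-fold, all higher.

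**Figure D5:**
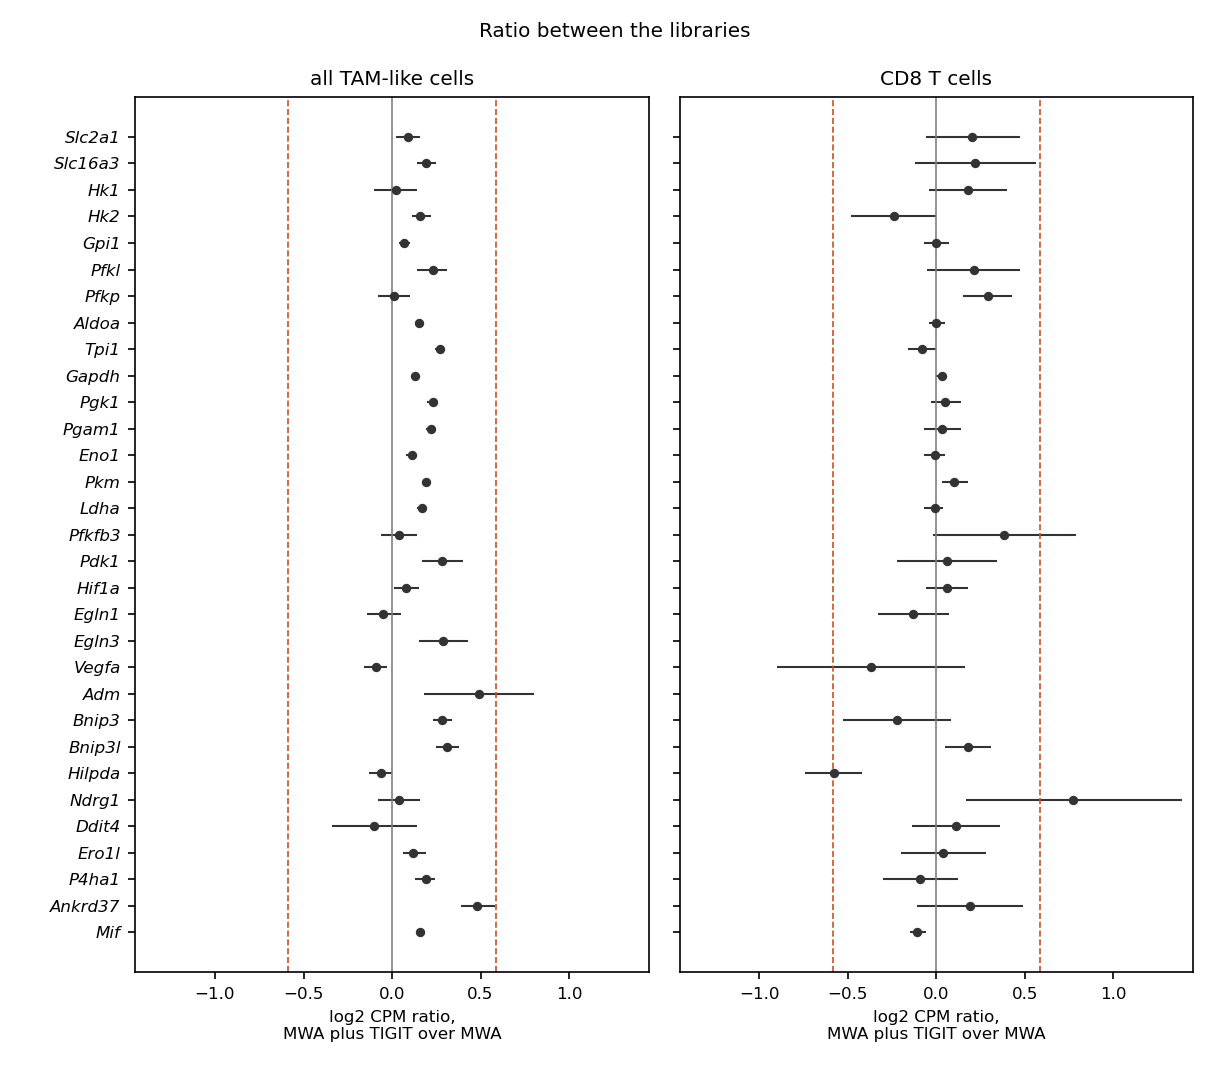
log2 CPM ratio of each member between the libraries, above 0 where the MWA plus TIGIT group was higher, with exact 95% counting intervals, in TAM-like cells (left) and CD8 T cells (right). Dashed lines are 1.5-fold in either direction, and genes under 100 UMIs over both libraries are not drawn. The 31 genes in TAM-like cells lie between −0.10 and 0.49, while in CD8 T cells Ndrg1 (0.77) and Hilpda (−0.58) stand apart.

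Within the finer CD8 T classes, effector-like cells had higher Pgk1 (105 and 162 CPM, 0.62, 0.36 to 0.89) and Pfkl (17.7 and 27.9 CPM) in the MWA plus TIGIT group, 2 of 18 genes past 1.5-fold where 3.49% of all genes were higher by that size. Interferon-induced-like CD8 T cells had higher Tpi1 (159 and 255 CPM) and Pgam1 (105 and 162 CPM), 2 of 11 against 5.69%. Exhausted-like cells had higher Ero1l (38.3 and 61.2 CPM, 0.68, 0.20 to 1.15), 1 of 21 against 5.52%. Cycling-like CD8 T cells had none of 26 past the size, while 5.71% of all genes were. Of the 26, 17 were lower, where 75% of all genes were higher, with medians of −0.04 for the members and 0.17 for all genes. In the cluster led by Gpr18 and Mettl1, Hilpda had 47.7 and 31.4 CPM (−0.60, −1.17 to −0.05), 1 of 16 against 0.47% lower. In regulatory T-like cells Bnip3 was past the size, at 70.0 and 114 CPM (0.70, 0.37 to 1.04), 1 of 24 against 1.89%, and the members' median was 0.25 against 0.07 for all genes. In CD4 T-like cells Slc16a3 had 13.6 and 25.6 CPM (0.91, 0.35 to 1.49), 1 of 27 against 3.06%.

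In neutrophil-like cells 9 of 12 counted members were lower and 3 higher in the MWA plus TIGIT group. All genes also leaned lower there, with 40.3% higher. Ldha, which makes lactate from pyruvate, had 1988 and 1277 CPM (−0.64, −0.96 to −0.32) and was the 1 gene of 12 counted to pass 1.5-fold, where 12.5% of 303 genes were lower by that size. With TMM or median-of-ratios factors in place of library totals, or with the members kept in the clustering, no gene was past the size. Hilpda had 2441 and 1691 CPM (−0.53, −0.81 to −0.25) and Mif 1442 and 1021 CPM (−0.50, −0.86 to −0.13). Bnip3 was the highest, at 546 and 687 CPM (0.33, −0.19 to 0.86). The members' median was −0.19 and that of all genes −0.10, and with 95 and 87 shallow cells most members could not be counted. In gamma-delta T-like cells (51 and 31 cells) Pkm had 418 and 251 CPM and Mif 615 and 355 CPM, 2 of 6 against 4.84%. In monocyte-like cells Ddit4 had 31.5 and 19.3 CPM, 1 of 30 genes against 0.77% lower, and within them the cluster led by Hp and Ace had lower Hif1a (239 and 159 CPM, −0.59, −0.99 to −0.19), 1 of 14 against 2.56%. NK-like and B-like cells had no member past the size among 13 and 3 counted, where 3.95% and 12.3% of all genes passed it, and DC-like cells none of 16 (7.25%).

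Some members were followed across the classes that do not overlap. Hilpda was counted in 15 classes and lower in 10 of them in the MWA plus TIGIT group, with the interval below 0 in 8 and above 0 in 1. Over those classes 40.3% to 75% of all genes were higher, and the share of all genes with such intervals is not given. It had 36.6 and 23.6 CPM in the TAM-like cluster led by Ccl8 and Selenop (−0.63, −0.86 to −0.41), past 1.5-fold where 0.591% of all genes were lower, and 30.3 and 19.0 CPM in cycling TAM-like cells (−0.67, −0.95 to −0.40), where 0.566% were. In exhausted-like CD8 T cells the levels were 206 and 162 CPM (−0.35, −0.59 to −0.10). The class with the interval above 0 was the TAM-like cluster led by Hspb1 and Mmp12, at 390 and 417 CPM (0.10, 0.01 to 0.19). Bnip3l was higher in 14 of 15 classes, with the interval above 0 in 5, and Egln3 in 5 of 5, with the interval above 0 in 1. Over the classes of Bnip3l and Egln3, 52.5% to 75% and 57.9% to 62.3% of all genes were higher. Among the enzymes, Pkm was higher in 18 of 22 classes and Gapdh in 19 of 23, each with the interval above 0 in 12 and below 0 in 1. Over their classes 40.3% to 75% and 23.8% to 75% of all genes were higher. Egln1 was lower in 9 of 12 classes, with the interval below 0 in 1 and above 0 in 0, where 52.5% to 75% of all genes were higher. For these genes too, the share of all genes with such intervals is not given. The classes come from the same libraries and are not repeats. Egln3 had its largest ratio in the TAM-like cluster led by Ccl8 and Selenop, at 4.20 and 8.96 CPM (1.09, 0.57 to 1.63), where 0.738% of all genes were higher by 1.5-fold, and Ankrd37 in interferon-induced-like TAM-like cells, at 21.4 and 39.5 CPM (0.88, 0.30 to 1.49), where 1.57% were.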

How the data were processed

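CD45+ cells of 1 MWA and 1 MWA plus TIGIT library were measured by 10x Genomics 3′ single-cell RNA sequencing. The authors deposited unnormalized UMI counts on mm10 (Cell Ranger 6.1.1 per the submitters' processing notes, 4.0.0 in the matrix headers). The libraries held 10217 and 10190 barcodes with 66152465 and 78751205 UMIs. Barcodes under 200 genes or over 10% mitochondrial UMIs were left out. The second feature row named Aldoa was not used. Doublets were called with simulated doublets (0.8% per 1000 barcodes), which removed 835 and 831 barcodes, and 62.0% and 60.7% of added doublets were found. Clustering used Seurat 5.3.0 (R 4.3.3), first of all cells at a lower resolution and then of T and NK cells at a higher one. Resolution 0.5 was used for the myeloid cells and the CD8 T cells. Counts were summed per class in Python 3.11.15 (pandas 2.3.3, numpy 2.4.6), with intervals from scipy 1.17.1. Intervals are exact at 95% and cover counting error only, of UMIs or, for the shares of scored cells, of cells. Alternatives included TMM factors from edgeR 4.0.16. Genes needed 100 UMIs over the cells compared. Text names all members and, outside them, the 10 highest and 5 lowest genes by score and the 5 highest and lowest other pathway genes, with further pathway genes where few were past the size. Members and lists were chosen with earlier results of these data known.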

Additional observations from a re-analysis of the deposited data

Results flagged for a closer look

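Pkm, the pyruvate kinase of leukocytes, went in opposite directions in 2 small classes. In mature DC-like cells it had 231 and 359 CPM, a log2 ratio of 0.64 that is positive where the second library is higher, while in gamma-delta T-like cells it had 418 and 251 CPM, a log2 ratio of −0.73. With 1 library per group the difference between these classes was not tested.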

How the results depend on the processing

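No paired analysis was possible because each group is 1 library, and for the same reason no library could be left out. Among TAM-like cells the count past 1.5-fold between libraries was 0, and 1 (Ankrd37) when cells over 5000 UMIs were left out, which kept 458 and 256 cells. The members' median log2 ratio there ranged from 0.12 to 0.20 over 12 alternatives. In CD8 T cells the count was 1, and 2 (Hilpda and Ndrg1) with a mitochondrial limit of 5%, with members kept in the clustering, with TMM factors, with median-of-ratios factors, and with totals without mitochondrial, ribosomal and member genes. The median of 0.04 turned to −0.08 with TMM factors, −0.11 with median-of-ratios factors and −0.08 with those totals, where the median of all genes was 0.02, 0.00 and 0.03 in place of 0.15. In neutrophil-like cells the count of 1 became 0 with members kept in the clustering, TMM or median-of-ratios factors, 2 with cells picked by marker UMIs, 4 with a minimum of 20 UMIs and 8 with at least 1 UMI in each library, the last 2 because more genes were counted (25 and 30). For the score, 21 of 22 members became 13 of 20 within the cluster led by Ccl8 and Selenop. That comparison was added after seeing the data and has no share of all genes beside it. The count between TAM-like and CD8 T cells ranged from 15 to 19 around 17. Except where the genes counted changed, the cause was not tested.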
